A study of Mus musculus with 44 samples.

Results

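The MHC class II presentation genes were followed across the livers of 9 groups of mice. They comprised 8 genes taken by name: H2-Aa, H2-Ab1 and H2-Eb1, which encode chains of the class II molecule, Cd74, which encodes the invariant chain, H2-DMa, H2-DMb1 and H2-DMb2, which encode the peptide editor H2-DM, and Ciita, the class II transactivator. All 8 were found among the 35249 genes of the count table. RNA was sequenced from liver pieces of wild-type (WT) mice, mice without Ripk3 (Ripk3KO, labelled Ripk3-/-) and mice without Mlkl (MlklKO, labelled Mlkl-/-). Feeding began at 2 months of age and lasted 6 months, on normal chow (called control), on a diet low in fat and lacking choline (CD-LFD), or on one high in fat and lacking choline (CD-HFD). There were 6 WT libraries on each diet, 6, 3 and 4 Ripk3KO libraries on control, CD-LFD and CD-HFD, and 6, 4 and 3 MlklKO libraries. The study set out to compare livers in which necroptosis, the lytic cell death that RIPK3 starts and MLKL carries out, could or could not occur. The labels give neither the strain nor the sex of the mice.

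Class II molecules show peptides from engulfed or membrane proteins to CD4 T cells. Their alpha and beta chains assemble with the invariant chain, which fills the groove until lysosomal proteases trim it to a short fragment, and H2-DM then exchanges that fragment for other peptides. Dendritic cells, B cells and macrophages make the proteins constantly, and interferon-gamma can switch them on in other cells. CIITA does not bind DNA itself but is recruited by factors that sit on paired X and Y boxes in the promoters of these genes. In liver, Kupffer cells, dendritic cells, infiltrating macrophages and sinusoidal endothelium are the usual sources, and hepatocytes contribute little.

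Promoter stretches with letters like those of the boxes are shown here, and their part in the members' levels was not tested. RefSeq promoter windows (GRCm38.p6, 250 bases before to 50 after the start) were given for 5 of the 8 members: H2-Aa, H2-Eb1, H2-DMa, H2-DMb1 and H2-DMb2. Capitals mark X letters (AACNNTGANG or AACNNNTGANG) and, 10 to 30 bases further on, Y letters (GATTGG). In the members and H2-Ob this pair was searched on the gene's own strand only. H2-Ob, which encodes a chain of the H2-DM inhibitor H2-DO, is shown beside the members. The letters were written down after these sequences had been seen, so their presence is a description.
H2-Aa, chr17:34287859-34287914, minus strand: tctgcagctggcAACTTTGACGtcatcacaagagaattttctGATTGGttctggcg
H2-Eb1, chr17:34305766-34305820, plus strand: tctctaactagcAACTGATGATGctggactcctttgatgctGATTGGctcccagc
H2-DMb1, chr17:34153087-34153142, plus strand: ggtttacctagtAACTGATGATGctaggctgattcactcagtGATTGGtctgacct
H2-DMb2, chr17:34145116-34145171, plus strand: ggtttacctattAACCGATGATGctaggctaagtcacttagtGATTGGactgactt
H2-Ob, chr17:34238808-34238860, plus strand: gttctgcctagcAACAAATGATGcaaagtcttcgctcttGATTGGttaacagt
Searched on both strands, the pair of letter groups occurred in 34 of 32851 windows (0.103%), which belonged to 31 genes. Y letters alone occurred on either strand in 16.1% of windows and X letters alone in 5.77%. The X match lay 79 to 121 bases before the start in the 4 members that held the pair. Neither of the 2 H2-DMa windows held the pair on the gene's own strand, and 1 of them held the Y letters when both strands were searched.

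Total counts were 2476268 to 12471844 in 43 of the 44 libraries, and WT CD-LFD replicate 3 stood apart with 88204703. Ripk3 was at 0 to 9 counts in the Ripk3KO libraries, the 9 being in control replicate 5, which goes against that library's label. Mlkl still gave 9 to 72 counts per MlklKO library. The library labelled MlklKO CD-HFD replicate 1 held 12.5 CPM of Mlkl (counts per 1e6, scaled by edgeR's trimmed-mean factors, TMM), above the 2.28 to 6.15 CPM of the WT control libraries and below the 14.3 to 17.7 CPM of those on CD-HFD. Without those 2 libraries the number of members called was the same in every comparison they entered. Alb, the hepatocyte marker, averaged 86106 CPM in WT control livers. The labels do not say that the libraries of a group are separate mice, so a p-value measures only the spread between these libraries.

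Per kilobase of principal transcript (GENCODE M21), WT control livers held 35.9 ± 6.77 CPM of Cd74 (SD, n = 6), 18.3 ± 7.49 of H2-Aa, 17.5 ± 3.75 of H2-Ab1 and 12.05 ± 3.76 of H2-Eb1. The peptide editor was lower, with 2.65 ± 0.797 CPM per kilobase of H2-DMa, 1.09 ± 0.678 of H2-DMb1 and 0.223 ± 0.162 of H2-DMb2, and Ciita was at 0.277 ± 0.129. Invariant chain was thus the most abundant member transcript per length, and the transactivator and the second DM beta chain the scarcest. On CD-HFD the same order held from Cd74 (215 ± 59.0) over H2-Aa (130 ± 19.8), H2-Ab1 (94.8 ± 23.5) and H2-Eb1 (87.4 ± 16.3), but H2-DMb1 (11.9 ± 2.72) now stood above H2-DMa (9.53 ± 1.76). H2-DMb1 and H2-DMb2 share 369 stretches of 50 bases, 22.7% and 21.2% of their transcript sequence, so reads may be split or lost between them. No other pair of members shared such a stretch.

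**Figure D1:**
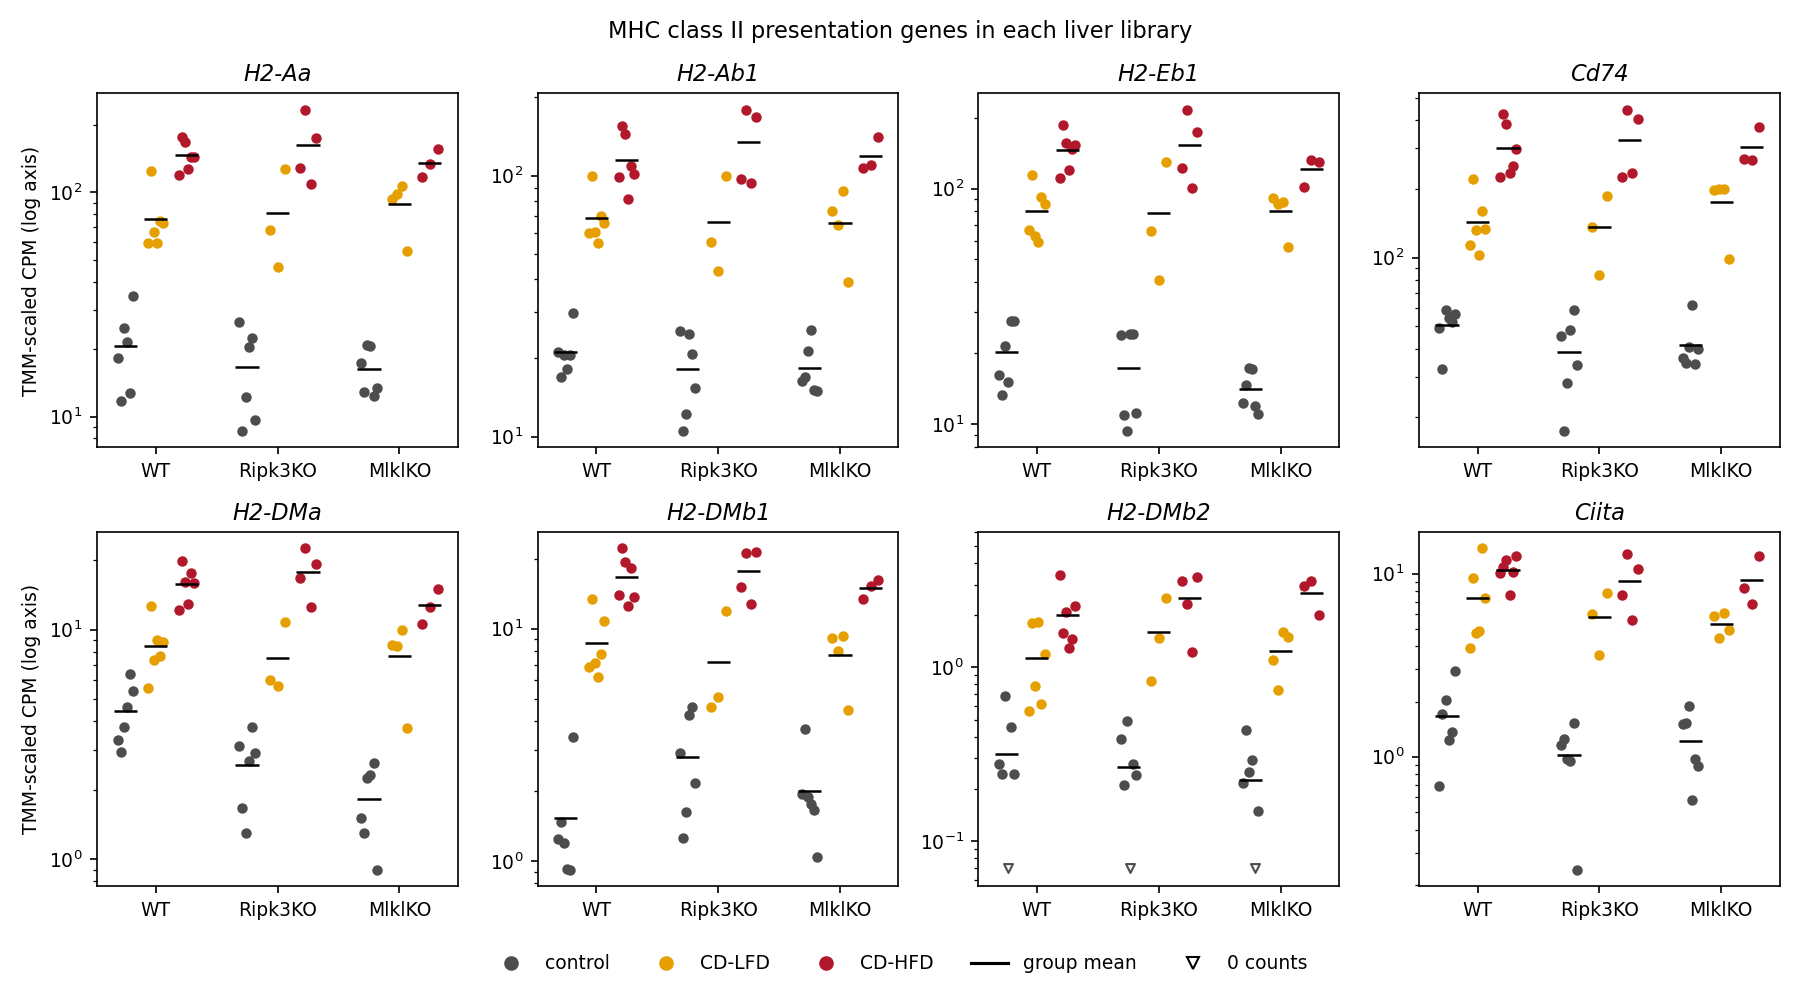
TMM-scaled CPM of the 8 members (1 panel each, log axis) in every library, by genotype and diet; bars are group means and open triangles libraries with 0 counts. In WT liver all 8 members had every CD-HFD library above every control library.

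In WT liver on CD-HFD 6 members, H2-Aa, H2-Ab1, H2-Eb1, Cd74, H2-DMa and H2-DMb1, rose against control, by 3.73-fold (H2-DMa) to 10.7-fold (H2-DMb1). Every CD-HFD library of all 8 lay above every control library. Such gaps between libraries are given here and below without the share of all genes that show them, so they only describe the members. The genes for the class II chains, the invariant chain and the peptide editor were among those that rose. The edgeR quasi-likelihood test called 23.5% of all 14862 genes tested higher in this comparison at a Benjamini-Hochberg adjusted p under 0.05, and the median log2 change of all genes was -0.07 against 2.70 for the 6 members. With library size as the only scaling the median of all genes moved to 0.43 and the share of called genes that were higher from 49.4% to 87.0%, and the 6 members were called higher under either scaling. All 8 members passed the filter on low counts, but H2-DMb2 and Ciita would not have passed on the control libraries alone. Those 2 entered through the diets on which they were high, so their tests against control are not read: counts of calls against control cover the other 6, and these 2 are given by their levels and counts. In whole liver, more cells of a type and more RNA per cell cannot be told apart.

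H2-Aa, the alpha chain of I-A, was at 11.7, 19.9 and 34.5 CPM (lowest, median and highest of 6) in WT control libraries and at 120, 144 and 177 on CD-HFD. The change was 2.82 ± 0.26 on the log2 scale (SE; adjusted p = 3.43e-11, edgeR), or 7.06-fold with a 95% interval of 4.90 to 10.2. H2-Ab1, the beta chain that pairs with it, went from 16.9, 20.6 and 29.8 CPM to 81.0, 105 and 154 (log2 change 2.44 ± 0.23, adjusted p = 3.07e-11). For both chains a wide gap separated the groups. H2-Eb1, the beta chain of I-E, was at 13.2, 18.8 and 27.4 CPM on control and 111, 151 and 186 on CD-HFD (log2 change 2.87 ± 0.25, adjusted p = 6.42e-12). Its alpha chain partner H2-Ea, which some laboratory strains do not transcribe, had 0 counts in 8 of the 9 groups and 1 count in 1 library of the remaining group, MlklKO CD-LFD.

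Cd74, whose product guards the peptide groove, was at 32.5, 53.2 and 58.9 CPM in WT control libraries and 225, 275 and 424 on CD-HFD (log2 change 2.58 ± 0.24, adjusted p = 4.16e-11). H2-DMa, the alpha chain of the peptide editor, went from 2.93, 4.18 and 6.39 CPM to 12.2, 16.1 and 19.97 (1.90 ± 0.25, adjusted p = 3.82e-08). Its change was the smallest among the members. H2-DMb1, a beta chain of the editor, went from 0.913, 1.22 and 3.42 CPM, which rest on 2 to 14 counts per library, to 12.5, 16.1 and 22.2 (3.42 ± 0.34, adjusted p = 2.00e-11). Of the 6 control libraries, replicate 6 alone was above 1.47 CPM of H2-DMb1. H2-DMb2 had 0 to 4 counts per control library, 9 in all, against 109 on CD-HFD, a ratio of 5.77 relative to TMM-scaled library sizes. This ratio of pooled counts, like those of H2-DMb2 below, is a level and not a test. Ciita was at 0.690, 1.54 and 2.93 CPM on control and 7.68, 10.5 and 12.5 on CD-HFD, 43 counts in all against 590. No CD-HFD library overlapped control for these genes either, the scarcest ones resting on few counts.

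CD-LFD, the choline-deficient diet without the high fat, also raised the 6 members in WT liver, by 1.99-fold (H2-DMa) to 5.53-fold (H2-DMb1). The test called 13.7% of all genes higher here. The median log2 change of the 6 was 1.78, against -0.03 for all genes. H2-Aa was at 59.3, 69.6 and 124 CPM on CD-LFD (log2 change 1.87 ± 0.26, adjusted p = 1.26e-06) and H2-Eb1 at 59.3, 76.4 and 114 (2.01 ± 0.25, adjusted p = 1.38e-07). H2-Ab1 was at 55.1, 63.5 and 99.2 CPM (1.69 ± 0.23) and Cd74 at 103, 133 and 220 (1.5 ± 0.24, adjusted p = 1.22e-05). For these 4 genes no CD-LFD library overlapped the control libraries. H2-DMa, at 5.58, 8.23 and 12.7 CPM, overlapped its controls (0.99 ± 0.25, adjusted p = 0.00305), and so did H2-DMb2. H2-DMb1 rose to 6.18, 7.47 and 13.4 CPM (2.47 ± 0.35, adjusted p = 4.06e-07), and Ciita was at 3.91, 6.08 and 13.7 CPM. Neither overlapped its control libraries. The H2-DMb2 counts on CD-LFD summed to 107, of which 68 came from the very deep replicate 3, and the ratio to control was 2.62. Both diet comparisons use the same 6 control libraries.

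Clock phase differed between the WT groups. The higher ratio of Arntl to Dbp, clock genes of opposite phase, was found in 4 of 6 WT control, 6 of 6 WT CD-LFD and 1 of 6 WT CD-HFD libraries and in no knockout library, so phase was unbalanced in the WT diet comparisons and, most of all, between the knockouts and WT on CD-LFD. With phase as a covariate the 6 members were still called higher in each comparison of a diet with control, 6 were called between the choline-deficient diets in WT liver, and 0 between either knockout and WT on CD-LFD.

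Between the choline-deficient diets, 6 of 8 members were higher on CD-HFD than on CD-LFD in WT liver, where 13.7% of all genes were called higher. The gain was 2.11-fold for Cd74 (95% interval 1.52 to 2.93, adjusted p = 0.000779), 1.93-fold for H2-Aa and H2-DMb1, 1.88-fold for H2-DMa, 1.82-fold for H2-Eb1 and 1.68-fold for H2-Ab1. Only the Cd74 groups were separated, with CD-LFD libraries up to 220 CPM and CD-HFD libraries from 225. Ciita differed by 1.45-fold (interval 1.01 to 2.08, adjusted p = 0.143) and H2-DMb2 by 1.86-fold (1.13 to 3.03, adjusted p = 0.0656), and neither passed the test. With library size as the only scaling, H2-DMb2 passed as well (adjusted p = 0.0256), where 20.6% of all genes were called higher. WT CD-LFD replicate 2 had all 8 members above its group's mean, by 0.62 on average on the log2 scale, and replicates 1 and 3 had none above it.

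**Figure D2:**
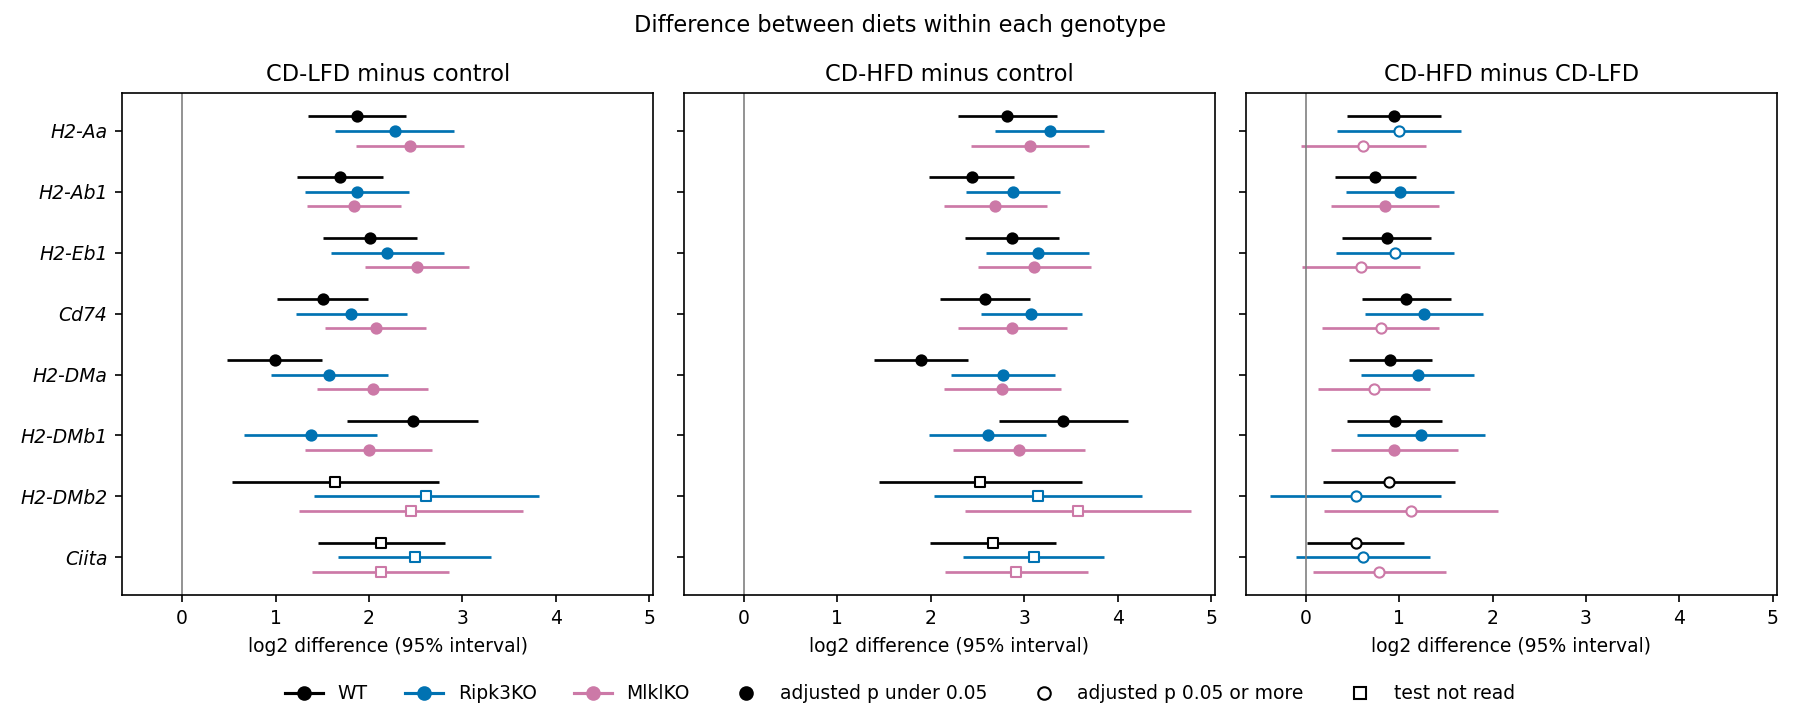
Log2 differences between diets within each genotype for the 8 members, with 95% intervals (points, edgeR estimates; filled where the adjusted p was under 0.05). Squares are H2-DMb2 and Ciita against control, whose tests are not read. The differences of the other 6 members from control lie above 0 and are filled, while 6 (WT), 4 (Ripk3KO) and 2 (MlklKO) of the 8 differences between the choline-deficient diets are.

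For each of the 8 members, the 9 group means fell in 3 blocks: the 3 CD-HFD groups held the highest ranks, the 3 CD-LFD groups the next and the 3 control groups the lowest, whatever the genotype. Within a block, groups next to each other in rank overlapped for every member. Between the CD-HFD group of lowest mean and the CD-LFD group of highest mean the libraries were separated for H2-Aa, H2-Eb1, Cd74 and H2-DMb1, and overlapped for the other 4 members. The blocks as a whole were less separated: among all groups, some CD-LFD libraries lay above some CD-HFD libraries for H2-Aa, H2-Eb1 and H2-DMb1 too. Between the CD-LFD group of lowest mean and the control group of highest mean the libraries were separated for H2-Aa, H2-Ab1, H2-Eb1, Cd74 and Ciita, and overlapped for the 3 H2-DM genes. The order of the genotypes within a diet differed between members and cannot be read from groups that overlap. Groups not next to each other in rank could be separated, as WT and MlklKO were for H2-DMa on control.

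Both knockouts responded to the diets in the same direction. In Ripk3KO liver CD-HFD raised the 6 members, by 6.10-fold (H2-DMb1) to 9.66-fold (H2-Aa), where 24.6% of all genes were called higher. H2-Aa was at 8.59, 16.4 and 26.4 CPM on control (lowest, median, highest of 6) and at 129, 234, 109 and 175 in the 4 CD-HFD libraries (log2 change 3.27 ± 0.29, adjusted p = 4.08e-12). Cd74 was at 17.4, 39.6 and 59.1 CPM on control and 226, 444, 235 and 405 on CD-HFD (3.08 ± 0.27, adjusted p = 3.08e-12). Replicates 2 and 5 were the high CD-HFD libraries for both genes, and no library overlapped control for any member. H2-Ab1 was at 96.7, 179, 93.9 and 167 CPM and H2-Eb1 at 122, 217, 101 and 175 on CD-HFD, against control medians of 18.04 and 17.5. H2-DMa was at 16.8, 22.6, 12.5 and 19.3 CPM and H2-DMb1 at 15.1, 21.2, 12.8 and 21.4, against control medians of 2.78 and 2.54. Replicate 3 was the low library, with 0 of 8 members above the group mean and a mean deviation from it of -0.53 on the log2 scale. Ciita went from 0.241, 1.07 and 1.54 CPM to 7.66, 12.7, 5.59 and 10.6, and H2-DMb2 from 9 counts to 93, a ratio of 9.10.

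On CD-LFD the 6 members were called higher than control in Ripk3KO liver as well, with 14.0% of all genes called higher. Their changes ran from 2.60-fold (H2-DMb1) to 4.84-fold (H2-Aa). The 3 CD-LFD libraries differed widely: H2-Aa was at 67.7, 46.4 and 128 CPM, H2-Eb1 at 66.0, 40.9 and 129, and H2-DMb1 at 4.58, 5.06 and 11.9. Replicate 3 had all 8 members above the group mean. Without it the H2-DMb1 change fell to 0.73 on the log2 scale and was no longer called (adjusted p = 0.259), while the other 5 of the 6 were still called. Between the choline-deficient diets 4 of 8 members were higher on CD-HFD, against 5.75% of all genes: H2-DMa (2.30-fold, adjusted p = 0.00837), Cd74 (2.41-fold, adjusted p = 0.00929), H2-DMb1 (2.35-fold, adjusted p = 0.0174) and H2-Ab1 (2.01-fold, adjusted p = 0.0232). H2-Aa and H2-Eb1 differed by 2.00-fold and 1.94-fold without passing (adjusted p = 0.0551 and 0.0529). This count was unstable, at 0 without CD-LFD replicate 2, 1 without CD-LFD replicate 1, 2 without CD-HFD replicate 5 and up to 6 when other libraries were left out.

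In MlklKO liver CD-HFD raised the 6 members by 6.46-fold (H2-Ab1) to 8.63-fold (H2-Eb1), against 24.9% of all genes called higher. H2-Aa was at 12.3, 15.3 and 20.9 CPM on control and 117, 133 and 156 in the 3 CD-HFD libraries (log2 change 3.06 ± 0.31, adjusted p = 6.34e-11). H2-Eb1 went from 11.04, 13.4 and 17.2 CPM to 101, 132 and 130 (3.11 ± 0.30, adjusted p = 1.3e-11), and Cd74 from 34.4, 38.2 and 61.8 to 270, 268 and 373 (2.87 ± 0.29, adjusted p = 4.95e-11). Replicate 4 was the high CD-HFD library for H2-Aa and Cd74. H2-Ab1 went from 14.9, 16.7 and 25.5 CPM to 107, 109 and 141 (2.69 ± 0.27, adjusted p = 4.12e-11), and Ciita from 0.583, 1.24 and 1.88 to 8.36, 6.79 and 12.5. H2-DMa went from 0.895, 1.88 and 2.62 CPM to 10.6, 12.5 and 15.1 (2.77 ± 0.31, adjusted p = 4.16e-10) and H2-DMb1 from 1.04, 1.82 and 3.69 to 13.4, 15.3 and 16.3 (2.95 ± 0.35, adjusted p = 1.67e-09). H2-DMb2 had 8 control counts against 56, a ratio of 12.7.

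CD-LFD raised the 6 members in MlklKO liver too, by 3.58-fold (H2-Ab1) to 5.72-fold (H2-Eb1), against 19.7% of all genes. Cd74 was at 199, 200, 200 and 98.1 CPM in the 4 libraries, and H2-DMa at 8.56, 8.49, 9.94 and 3.72. Replicate 4 was the low library for both. H2-Aa was at 93.2, 98.7, 107 and 54.5 CPM, H2-Ab1 at 73.3, 64.5, 86.9 and 39.0, and H2-DMb1 at 9.07, 8.05, 9.30 and 4.47, so replicate 4 was low there as well. Ciita, at 5.85, 4.47, 6.09 and 4.91 CPM, was not lowest in that library. From CD-LFD to CD-HFD every member's libraries were separated, with 4 against 3 libraries and without a share of all genes for such gaps. The edgeR test called 2 of 8 higher, H2-Ab1 (1.80-fold, adjusted p = 0.0257) and H2-DMb1 (1.93-fold, adjusted p = 0.0331), against 14.6% of all genes. The intervals of the other 6 ran from 0.968-fold at the lowest end to 4.17-fold at the highest. Of the refits, library size as the only scaling called all 8, with 32.1% of all genes then called higher and their median log2 difference at 0.41, and a fit of these 2 groups alone called 7, whereas leaving out CD-LFD replicate 2 or 4 or CD-HFD replicate 2 or 4 called 0.

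No class II member passed the test between a knockout and WT on the choline-deficient diets. On CD-HFD 0 of 8 members passed the edgeR test in Ripk3KO liver, where 0.377% of all genes were called, and 0 of 8 in MlklKO liver, where 0% were called. On CD-LFD the counts were 0 of 8 in Ripk3KO liver (1.10% of all genes) and 0 of 8 in MlklKO liver (2.56%). In these 4 comparisons no member reached an unadjusted p under 0.05, and DESeq2 called 0 in each. The differences were estimated to within limits: on CD-HFD the Cd74 ratio of Ripk3KO to WT was 1.08 with a 95% interval of 0.749 to 1.56, and that of MlklKO to WT was 1.0 (0.670 to 1.5). For H2-Ab1 the CD-HFD ratios were 1.17 (0.834 to 1.64) and 1.04 (0.715 to 1.5). Ciita was at 0.870 (0.584 to 1.3) in Ripk3KO and 0.879 (0.564 to 1.37) in MlklKO relative to WT. Over all 8 members the intervals on CD-HFD reached from 0.554 to 2.38, so changes within those limits could not be seen with 3 or 4 knockout libraries.

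**Figure D3:**
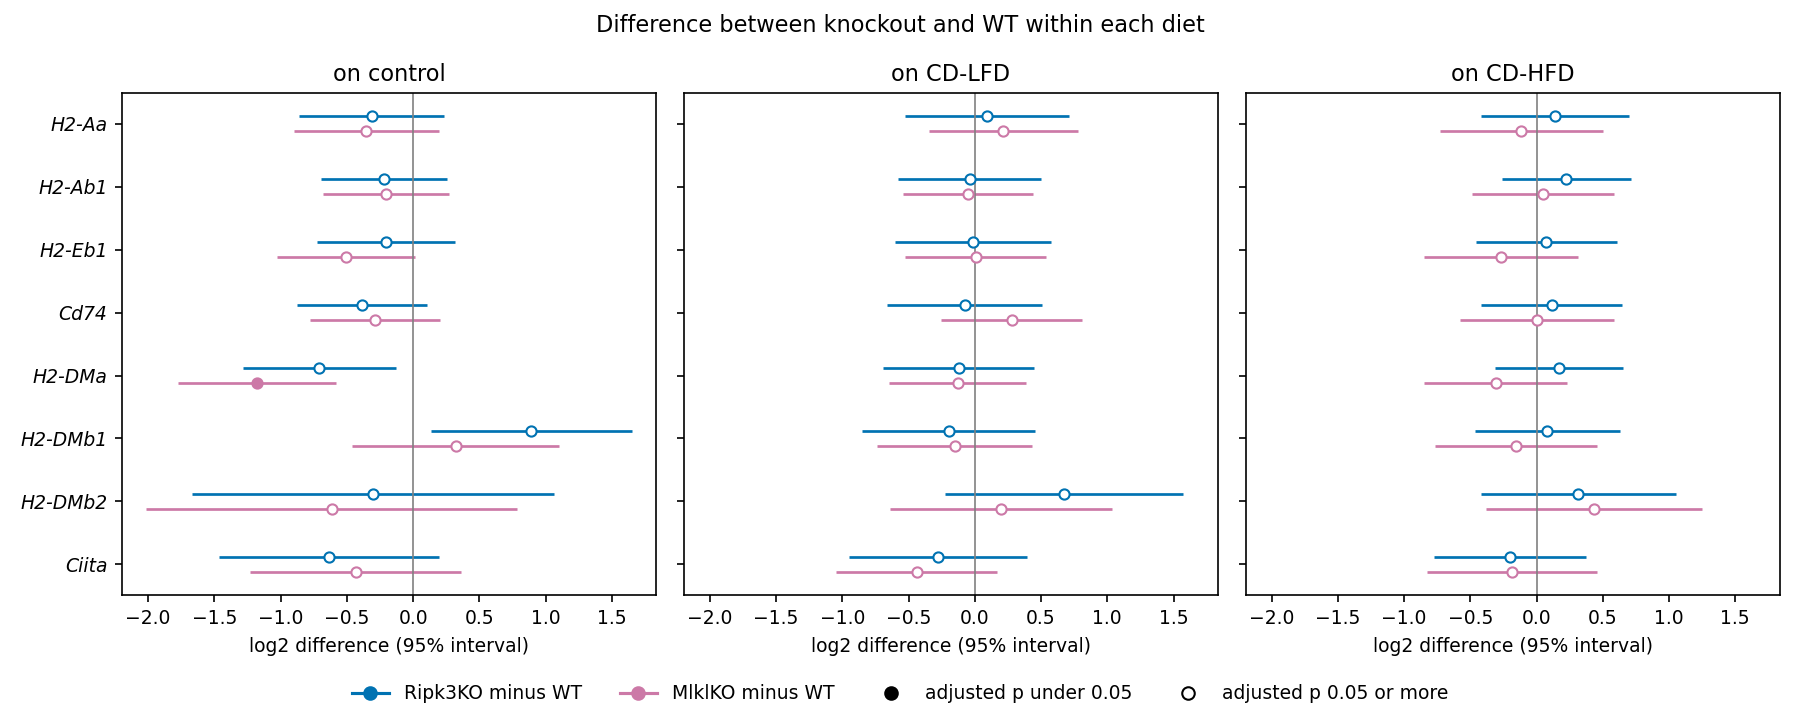
Log2 differences of Ripk3KO and of MlklKO from WT on each diet for the 8 members, with 95% intervals (filled where the adjusted p was under 0.05). The 1 filled point is H2-DMa in MlklKO liver on control.

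On control, H2-DMa was lower in MlklKO than in WT liver. It was at 0.895, 1.88 and 2.62 CPM in MlklKO livers against 2.93, 4.18 and 6.39 in WT livers, with no overlap (log2 change -1.18 ± 0.29, ratio 0.442, interval 0.293 to 0.667, adjusted p = 0.00258). The counts behind it were 6 to 19 per MlklKO library and 12 to 24 per WT library. It was 1 of 8 members called, against 27.1% of all genes in this comparison, a background that the members' share did not exceed. The summed level of B cell markers there was 2.07 to 3.45 CPM in MlklKO and 2.20 to 17.8 in WT livers, which overlap, and its part in the H2-DMa difference was not tested. With clock phase as a covariate H2-DMa remained called (adjusted p = 0.0368). In Ripk3KO control livers 0 of 8 members passed (4.47% of all genes; DESeq2, 0), although H2-DMa (ratio 0.613, adjusted p = 0.147) and H2-DMb1 (ratio 1.86, adjusted p = 0.156) had an unadjusted p under 0.05. H2-DMb1 was at 1.26, 2.54 and 4.61 CPM in those livers against 0.913, 1.22 and 3.42 in WT.

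The size of the diet response was tested directly between genotypes, in comparisons that share the control libraries with those above. As these contrasts involve the control libraries, they are read for the 6 members other than H2-DMb2 and Ciita. None of the 6 passed for Ripk3KO on CD-HFD (0.478% of all genes called), Ripk3KO on CD-LFD (0.0269%), MlklKO on CD-HFD (4.12%) or MlklKO on CD-LFD (8.45%). DESeq2 also called 0 in each, and 1 member in each reached an unadjusted p under 0.05. That member was H2-DMa in 3 of the 4, whose rise was larger than in WT by a factor of 1.84 (interval 1.09 to 3.09, adjusted p = 0.337) in Ripk3KO on CD-HFD, 1.83 (1.05 to 3.19, adjusted p = 0.215) in MlklKO on CD-HFD and 2.07 (1.2 to 3.56, adjusted p = 0.0804) in MlklKO on CD-LFD. The last passed without MlklKO CD-LFD replicate 4 (adjusted p = 0.0322). In Ripk3KO on CD-LFD it was H2-DMb1, with a factor of 0.469 (0.235 to 0.938, adjusted p = 0.548).

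Ratios of 2 members within a library need no scaling between libraries, and transcript length cancels when they are compared between groups. Over 35 comparisons none passed after Benjamini-Hochberg adjustment (two-sided exact permutation tests; 13 had an unadjusted p under 0.05, and the lowest adjusted p was 0.0505). That outcome depended on how many tests were adjusted together: without the 8 that set Ciita or H2-DMb2 against control, a family chosen after the values were seen, 3 of 27 passed (adjusted p = 0.0390 for each, exact permutation tests), namely H2-DMa to H2-Ab1 on both diets against control and Cd74 to H2-Ab1 between the choline-deficient diets in WT liver. The H2-DMa to H2-Ab1 log2 ratio was -2.23 ± 0.39 (SD, n = 6) on WT control, -3.01 ± 0.27 on CD-LFD and -2.84 ± 0.23 on CD-HFD, a difference from control of -0.77 and -0.60 (exact permutation p = 0.00433 for each, adjusted p = 0.0505). By point estimate H2-DMa gained less than the I-A beta chain in WT liver, at the edge of the threshold. In the knockouts the CD-HFD difference was -0.14 (Ripk3KO, exact permutation p = 0.552) and 0.06 (MlklKO, exact permutation p = 0.738). The Cd74 to H2-Ab1 log2 ratio was 1.05 ± 0.12 on WT CD-LFD and 1.39 ± 0.16 on CD-HFD (exact permutation p = 0.00433, adjusted p = 0.0505). H2-Aa to H2-Ab1 was higher on CD-HFD than on control by 0.49 in WT, 0.45 in Ripk3KO and 0.37 in MlklKO on the log2 scale (exact permutation p = 0.0260, 0.0190 and 0.0238, each adjusted to 0.0826). With 6 against 3 libraries the smallest p possible was 0.0238. The H2-Ab1 to Ptprc log2 ratio, which sets the I-A beta chain against the leukocyte gene for CD45, was 1.40 ± 0.49 on WT control, 1.65 ± 0.40 on CD-LFD and 1.32 ± 0.26 on CD-HFD. These overlapped throughout, and Ptprc itself rose 5.56-fold on CD-HFD (adjusted p = 1.80e-10, edgeR).

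**Figure D4:**
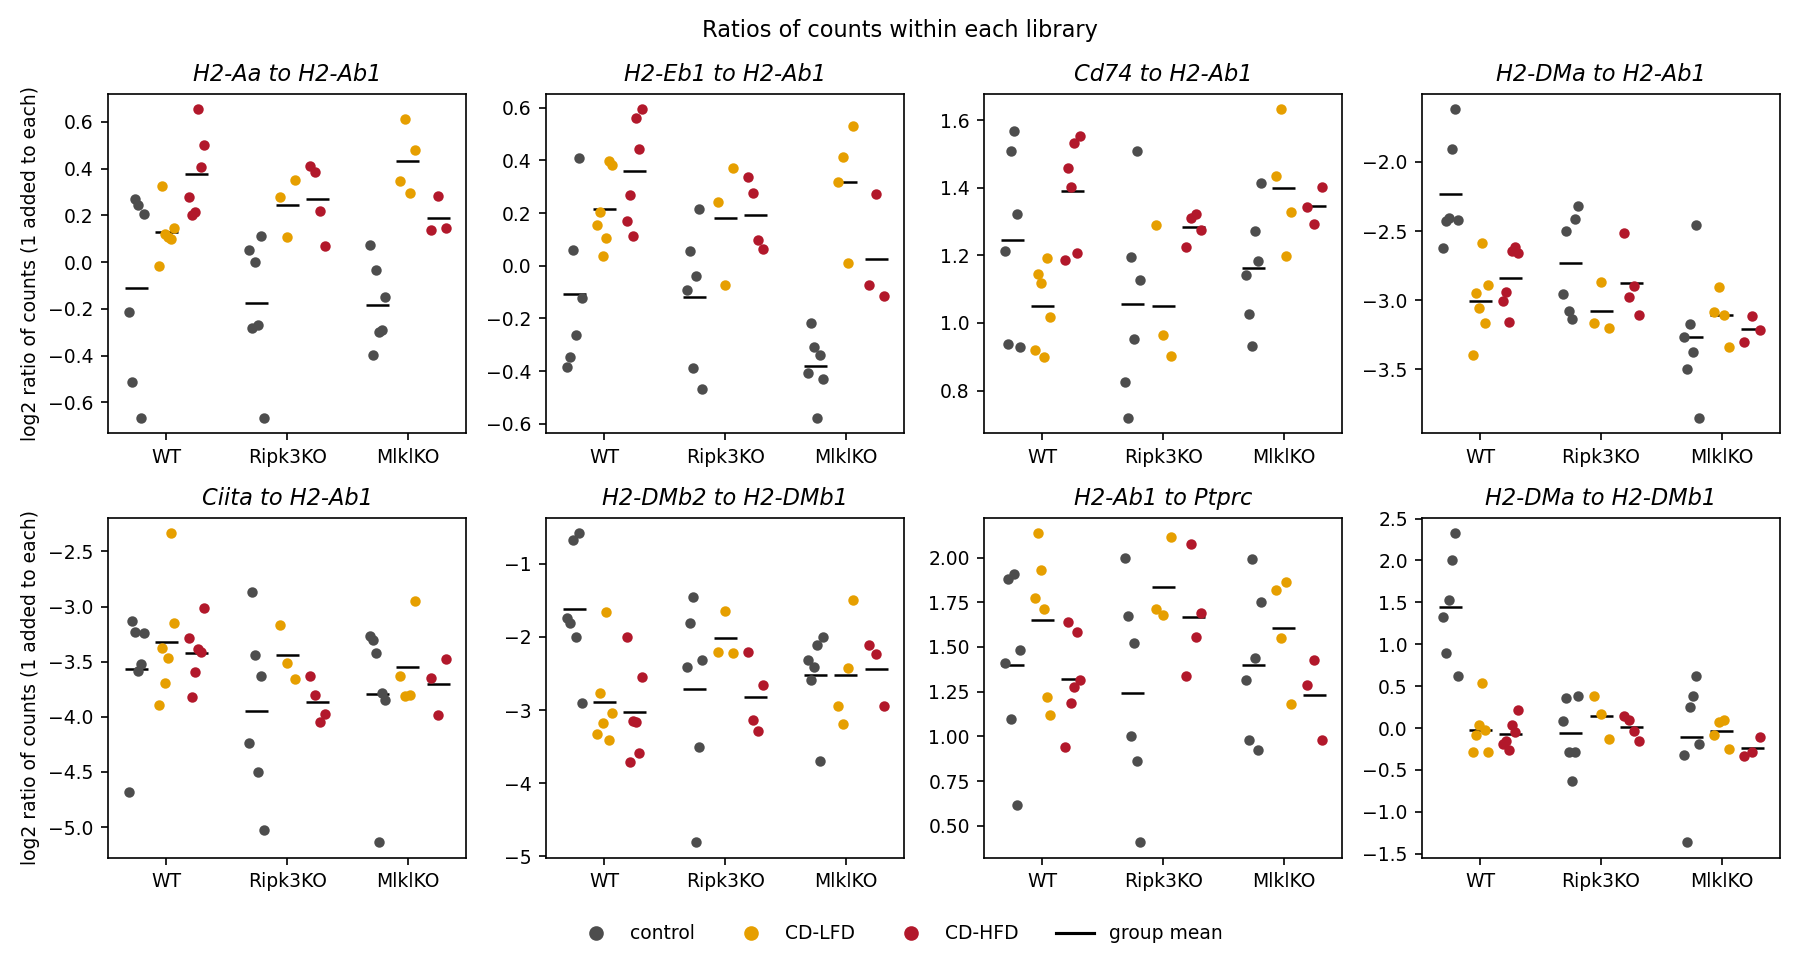
Log2 ratios of counts (1 added to each) within each library for 8 pairs of genes, by genotype and diet; bars are group means. The mean H2-DMa to H2-DMb1 log2 ratio is 1.45 in WT control livers and between -0.24 and 0.14 in the other 8 groups.

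The H2-DMa to H2-DMb1 ratio was looked at after its values had been seen and is given without a test. The log2 ratio was 0.62 to 2.32 in the WT control libraries, with a mean of 1.45, against group means of -0.24 to 0.14 in the other 8 groups. The lowest WT control library overlapped the highest MlklKO control library, which was at 0.62. Both genes encode chains of the same H2-DM dimer, and their levels in WT control livers rest on 2 to 24 counts per library.

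Within groups, libraries high in one member tended to be high in the others. After each group's mean was subtracted, the correlation over 44 libraries of a member with the mean of the other members was 0.895 for H2-Eb1, 0.893 for H2-Ab1, 0.853 for H2-Aa, 0.785 for Cd74, 0.754 for H2-DMb1 and 0.680 for H2-DMa (Pearson). Ciita (0.503) and H2-DMb2 (0.150), the members with fewest counts, followed the others least. The highest pair was Cd74 with H2-Ab1 at 0.898. Among 11777 other genes with a mean log2 CPM of at least 1, the 10 most like the members' mean were Ltb (0.751), Tyrobp (0.695), Galnt15 (0.675), Lck (0.666), Coro1a (0.665), Tmsb4x (0.662), Ly86 (0.645), Hk3 (0.635), Rcsd1 (0.624) and Clic1 (0.621). Ltb encodes lymphotoxin beta, Tyrobp the myeloid adaptor DAP12, Lck the T cell kinase and Coro1a an actin-binding protein of leukocytes. Ptprc reached 0.600 and Alb -0.403, and the other hepatocyte markers ran from -0.291 (Hnf4a) to -0.0598 (Apoa1). Genes of one library share its depth, its scaling and the makeup of its piece of liver, so these values only describe the libraries.

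The other genes of class II presentation moved in both directions. As with the members, list genes that would not have passed the filter on control libraries are given only as levels, and counts against control leave them out. In WT liver on CD-HFD 23.5% of all genes were called higher than control and 24.1% lower. Of 13 accessory genes 8 were counted, of which 6 were higher and 1 lower, with a median log2 change of 1.17. Ctss, the protease that trims the invariant chain, rose from 16.3 to 254 CPM on average (3.94 ± 0.31, adjusted p = 1.74e-12). Lgmn rose by 1.62 ± 0.22 and Ctsd by 1.60 ± 0.15, both lysosomal proteases, while Marchf8, a ubiquitin ligase of membrane proteins, fell by 0.60 ± 0.18 on the log2 scale (adjusted p = 0.00619). H2-Ob, shown above with its promoter, was at 1.77 CPM on control and 3.12 on CD-HFD, and Marchf1, a ubiquitin ligase that removes class II from the surface, at 0.793 and 3.92. H2-Oa, H2-Eb2 and H2-Ea were too low to test. With library size as the only scaling Marchf8 was at -0.09 and no longer called (adjusted p = 0.658), and 6 of the 8 genes were higher as with TMM.

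Of 9 factors of class II promoters 3 were higher and 1 lower, with a median of 0.01, beside the 23.5% and 24.1% of all genes. The list was thus near the background. The higher ones were Spi1 (2.91 ± 0.27, adjusted p = 2.32e-11), which encodes the myeloid factor PU.1, Irf8 (1.87 ± 0.26, adjusted p = 2.26e-07), a factor of dendritic cells and macrophages, and Nfya (1.03 ± 0.17, adjusted p = 3.59e-06), a subunit of the Y box factor NF-Y. Nfyb, another subunit of it, fell by 0.91 ± 0.15 on the log2 scale. The 3 subunits of the X box factor RFX did not pass the test, at 0.10 ± 0.21 for Rfx5, -0.32 ± 0.14 for Rfxap and -0.47 ± 0.26 for Rfxank. With library size as the only scaling, where 45.8% of all genes were called higher and their median was 0.43, 6 factors were called higher, with a list median of 0.52 and Rfx5 among them at 0.60 (adjusted p = 0.0234), and Nfyb was still called lower.

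Of the class I pathway, which shows cytosolic peptides to CD8 T cells, 8 of 13 genes were higher and 1 lower, with a median of 0.74. The shares of all genes for this and the next lists in WT liver were 23.5% higher and 24.1% lower. H2-D1, a class I heavy chain, rose by 1.36 ± 0.12, the peptide transporter genes Tap2 and Tap1 by 1.10 ± 0.13 and 1.07 ± 0.17, and the immunoproteasome gene Psmb9 by 1.06 ± 0.20, while Erap1, a peptide-trimming enzyme, fell by 0.74 ± 0.27 on the log2 scale. H2-K1 and B2m did not pass the test (adjusted p = 0.240 and 0.0901), but both did with library size as the only scaling, where Erap1 was no longer called (adjusted p = 0.460). Of the interferon-gamma axis 5 of 8 genes counted were higher and none lower, with a median of 1.22. Gbp2 (1.87 ± 0.43) and Cxcl9 (1.85 ± 0.30), which interferon-gamma induces, and the receptor gene Ifngr1 (1.73 ± 0.19) led it. Socs1, an inhibitor that cytokines induce, was at 1.09 CPM on control and 3.51 on CD-HFD. Ifng itself was too low to test, at a mean of 0.0407 CPM on control and 0.186 on CD-HFD. Of the co-stimulation genes and class II receptors 3 could be counted, Cd86, Lag3 and Cd4. Cd86, a co-stimulatory ligand on antigen-presenting cells, rose by 0.93 ± 0.32 on the log2 scale (adjusted p = 0.0156, edgeR), while Lag3 fell by 0.88 ± 0.30, though not past the threshold with library size as the only scaling (adjusted p = 0.307). Cd274, the gene for PD-L1, was at a mean of 0.859 CPM on control and 6.05 on CD-HFD, and Cd40 at 0.421 and 3.39. Icosl was at 0.972 and 7.87 CPM, and Havcr2 at 0.368 and 4.53. Cd4, the receptor that class II engages, was at 2.52 CPM on control and 2.30 on CD-HFD (adjusted p = 0.833). The lists were read in the knockouts too: on CD-HFD 6 of 8 accessory genes were higher than control in Ripk3KO and 5 in MlklKO liver, and 2 of 9 promoter factors were higher and 3 lower in each. Of 13 class I genes 7 were higher and 2 lower in Ripk3KO, and 6 and 2 in MlklKO liver. Of 8 genes of the interferon-gamma axis 5 were higher and 1 lower in each, and of the 3 co-stimulation genes and receptors 1 was higher and 0 lower in each. Of all genes 24.6% were higher and 21.7% lower in Ripk3KO, and 24.9% and 20.3% in MlklKO liver.

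**Figure D5:**
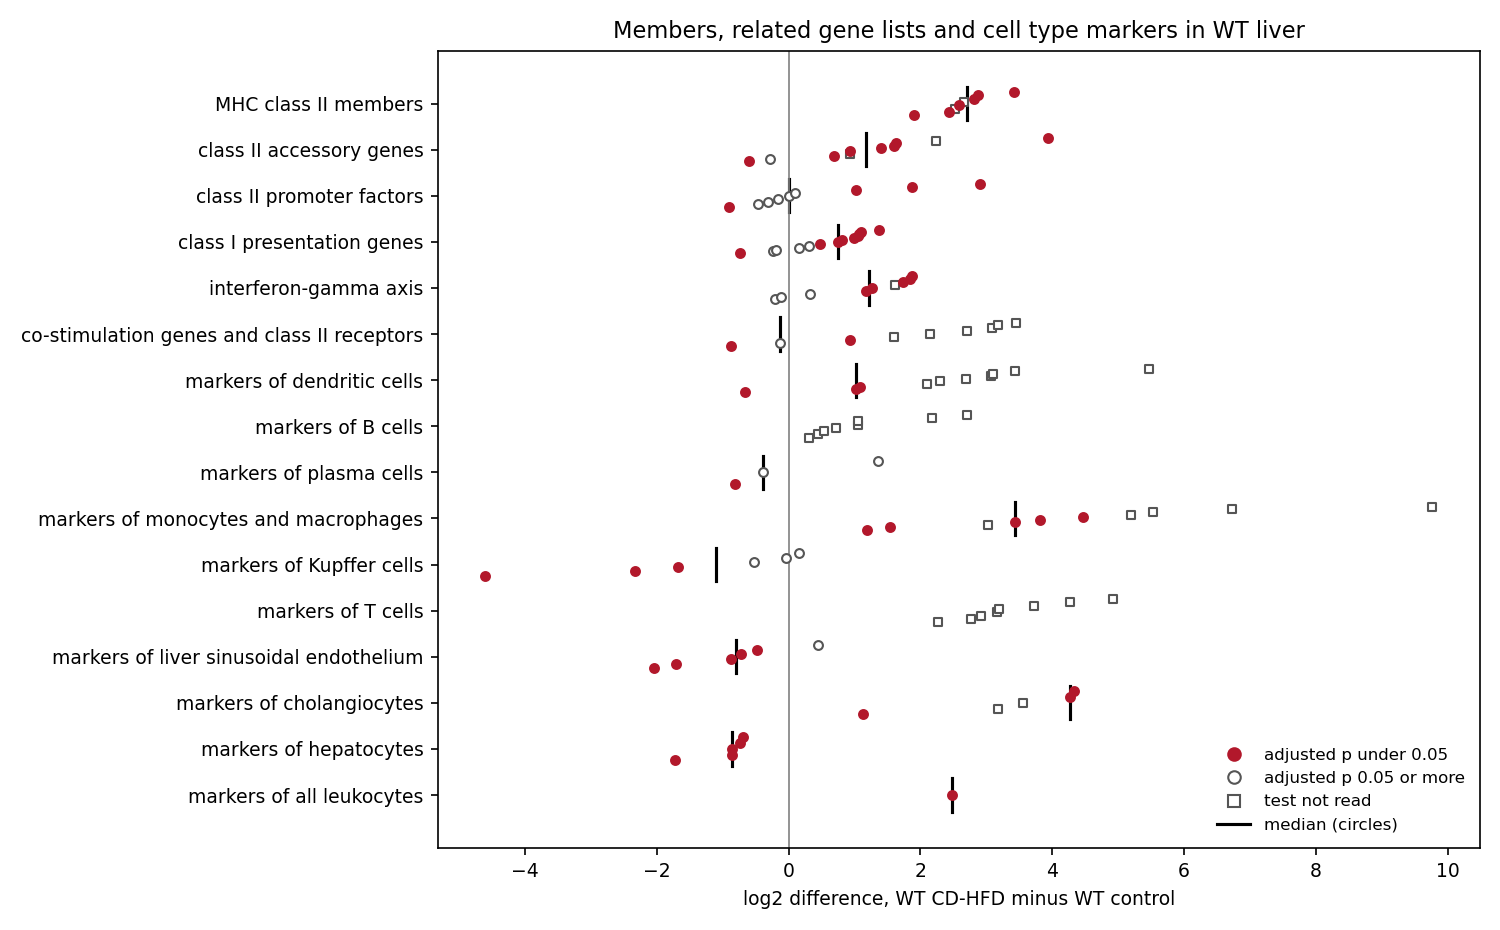
Log2 difference between WT CD-HFD and WT control for each tested gene of the members, 5 related lists and 10 sets of cell type markers (filled circles, adjusted p under 0.05; squares, genes that would not pass the filter on control, whose tests are not read; black bars, medians of the circles). The median of the 6 members is 2.70, beside 3.43 for monocyte and macrophage, 2.47 for leukocyte and 1.03 for dendritic cell markers and 0.74 for class I genes.

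Of the cell types that make class II, in WT liver on CD-HFD with TMM scaling, markers of macrophages rose with the members, those of dendritic cells rose in part, and those of Kupffer cells and sinusoidal endothelium fell or did not pass. The part of any of them in the members' changes was not tested. Of all genes, 23.5% were called higher and 24.1% lower in WT CD-HFD against control. All 5 monocyte and macrophage markers that could be counted were higher (median log2 change 3.43), and the summed level of all 10 was 71.0 to 88.1 CPM on control, 157 to 308 on CD-LFD and 920 to 2588 on CD-HFD. Of 3 dendritic cell markers counted 2 were higher and 1 lower, too few to weigh against the shares of all genes. The sums of all 10 were 14.9 to 37.9, 24.8 to 52.3 and 69.1 to 123 CPM. Itgax, the gene for CD11c, made up much of that difference: without it the sums were 13.8 to 35.2 CPM on control and 33.4 to 46.7 on CD-HFD, which overlap. No B cell or T cell marker would have passed the filter on control, so these are given as sums. The B cell sums were 2.20 to 17.8, 6.25 to 20.6 and 13.8 to 21.1 CPM, which overlap, and the T cell sums were 1.47 to 4.89 CPM on control and 17.9 to 36.04 on CD-HFD, which do not. In control livers Itgam and Ly6c2 among the macrophage markers, Xcr1 and Cd209a among the dendritic cell markers, Ms4a1, Fcrla and Cr2 among the B cell markers and 5 of 8 T cell markers were at or under the counting floor, while none of these lists had a marker at 0 in every library of a WT group.

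Markers of resident cells were mostly lower or did not pass. Of 6 Kupffer cell markers none was higher and 3 were lower (sums of 127 to 176 CPM on control and 45.9 to 141 on CD-HFD), of 6 sinusoidal endothelial markers none was higher and 5 were lower (157 to 204 and 69.8 to 119), and all 5 hepatocyte markers were lower (83213 to 149849 and 52089 to 86913). All 3 cholangiocyte markers counted were higher (sums of all 5, 44.6 to 83.1 and 675 to 1122), most of that sum being Spp1, without which it was 15.4 to 34.7 and 78.7 to 117. Of 3 tested plasma cell markers none was higher and 1, Sdc1, was lower. Sdc1 made up nearly all of their sum (122 to 300 CPM on control and 103 to 164 on CD-HFD), and without it the sums were 4.15 to 14.7 and 3.46 to 19.5. In the knockouts on CD-HFD the 5 macrophage markers counted were again higher than control, of 6 Kupffer cell markers 0 were higher and 2 lower in Ripk3KO and 1 was higher and 1 lower in MlklKO liver, and of 6 sinusoidal markers 4 and 1 were lower. Of 5 hepatocyte markers 5 (Ripk3KO) and 3 (MlklKO) were lower, and of 3 dendritic cell markers 1 and 2 were higher. The shares of all genes there were 24.6% higher and 21.7% lower in Ripk3KO and 24.9% and 20.3% in MlklKO liver, so a count of 1 or 2 of 6 is near the background. With library size as the only scaling, which moved the share of all genes called lower in WT liver from 24.1% to 6.86% and that called higher to 45.8%, 2 rather than 5 sinusoidal and 2 rather than 5 hepatocyte markers were called lower, 1 sinusoidal and 1 plasma cell marker were called higher, no plasma cell marker was called lower, and 3 Kupffer cell markers were called lower. The dendritic cell marker Zbtb46, called lower with a log2 change of -0.66, was then at -0.18 and not called (adjusted p = 0.579). Against WT on CD-HFD, none of the markers of dendritic cells, B cells, macrophages or T cells was called in either knockout, where 0.377% (Ripk3KO) and 0% (MlklKO) of all genes were called, so the count says little about these lists.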

How the data were processed

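Strand-specific RNA-seq libraries from liver were read as whole-number counts per Ensembl gene, which the authors deposited as 1 table for 44 libraries. Per the submitters' processing notes, the authors used FastQC, STAR, HTSeq, edgeR and limma with GRCm39 (mm39), without versions or roles. Symbols were found for 34373 of 35249 gene IDs. Total counts were 2476268 to 88204703 per library, so a gene at 1 CPM rests on a few counts in the shallowest library.

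Genes were kept by edgeR 4.0.16 (filterByExpr, minimum count 10, which left 14862 genes and 99.8% of counts), scaled by TMM (factors 0.799 to 1.34) and fitted by its quasi-likelihood method to the 44 libraries together, each group having its own mean. P-values were adjusted by Benjamini-Hochberg over all genes within each of 19 contrasts, with a threshold of 0.05, and intervals are 95%. Standard errors are Wald errors, and the floor of 3 counts covers counting error only. Within-library ratios (1 added to each count) were tested by exact permutation, two-sided. Only WT CD-HFD and Ripk3KO CD-HFD against control and MlklKO against WT on CD-HFD were also run on simulated data. The outcome is not given here. The alternatives were RLE scaling, library size alone, no filter, a robust fit, DESeq2 1.42.0, fits of only the groups compared, a clock phase covariate, a replicate block, leaving out WT control replicates 5 and 6, leaving out each library and, added after seeing the data, a smaller family of ratio tests.

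The members were named by symbol, and members and gene lists were chosen with earlier results of these data known. All 8 members are named. The rule for other genes takes, from each of the 5 related lists, up to 4 called genes with the largest rise and up to 2 with the largest fall in WT CD-HFD against control (given as levels where a gene would not pass the filter on control libraries), then Ripk3 and Mlkl, and the 10 genes (mean log2 CPM of at least 1) whose deviations from group means correlate best with the members' mean. Other genes named, among them Rfx5, Rfxap, Rfxank, H2-K1, B2m, H2-Ob, Cd4 and Ifng, were chosen after their values were seen. In R 4.3.3, no column was left out.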

Additional observations from a re-analysis of the deposited data

Results flagged for a closer look

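Each member was screened for a library far from the rest of its group in the groups of 4 to 6 libraries (56 sets, where chance marks about 1 in 20), and 8 were marked by the gap to the nearest library. MlklKO CD-LFD replicate 4 was low in 3 genes: Cd74 at 98.1 CPM against 199 to 200 in the other libraries, H2-Eb1 at 56.4 against 85.8 to 91.5 and H2-DMa at 3.72 against 8.49 to 9.94. In WT CD-LFD replicate 2 H2-Aa was at 124 CPM, the others being at 59.3 to 74.8. Cd74 was low in WT control replicate 2, at 32.5 CPM against 49.1 to 58.9, and high in MlklKO control replicate 4, at 61.8 against 34.4 to 40.8. H2-DMb1 was at 3.42 CPM in WT control replicate 6 against 0.913 to 1.47, and Ciita at 0.241 CPM in Ripk3KO control replicate 6, where it had 1 count, against 0.945 to 1.54.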

How the results depend on the processing

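The number of members called kept within 1.5 times its value in every contrast but 3. For MlklKO CD-HFD against CD-LFD (2 called) it was 8 with library size only, 1 with no count filter, 7 with only the groups compared, and 0 to 3 when 1 library was left out. For Ripk3KO CD-HFD against CD-LFD (4 called) it was 0 to 6 when 1 library was left out. For the MlklKO by CD-LFD interaction (0 called) it was 0 to 1, the 1 being H2-DMa without MlklKO CD-LFD replicate 4. The cause was not tested. Of the within-library ratios 0 passed, but 3 did when the 8 tests of Ciita or H2-DMb2 against control were left out of the adjustment (chosen after seeing the data), since fewer tests were then adjusted together. Leaving out H2-DMb2 and Ciita against control, 49 called member changes were refitted 903 times, of which 882 kept their call, 21 lost it and 0 reversed. With the replicate block 8 members were called in WT CD-HFD against control and 8 in WT CD-LFD against control (6 in each without H2-DMb2 and Ciita, whose tests against control are not read), and the block changed no member count. Replicate numbers were shared between groups, but in 0 of 34 pairs of groups did all same-numbered libraries correlate over 0.1 (-0.35 to 0.55), so they were not read as pairs. With library size only, the share of called genes that were higher went from 53.1% to 90.3% in Ripk3KO CD-HFD and from 49.6% to 84.9% in WT CD-LFD against control. H2-DMb2 and Ciita, at 0 to 4 and 1 to 15 counts per control library, are limited by depth.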
